A study of Mus musculus with 4 samples.

Results

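Potassium channel genes were examined in single-nucleus RNA sequencing of mouse medial prefrontal cortex. Members were all symbols beginning with Kcn that held at least 100 UMIs (unique molecular identifiers, the tags by which RNA molecules are counted) in barcodes that passed 3 limits, without symbols ending in os. The limits were a minimum of 500 genes, a minimum of 800 UMIs and a mitochondrial share of UMIs no higher than 5%. Of 99 Kcn symbols, 75 were members, among 32287 features in all. The study gave C57BL/6J mice, 9 weeks old, the psychedelic DOI or saline and took the tissue 24 hours later. The 4 samples labelled were a female and a male given DOI and a female and a male given Saline. In every sample, controls included, the tissue is labelled as expressing scFLARE2, a tool that marks active cells by releasing a transcription factor, together with a reporter under the TRE promoter that carries mCherry and bReaChES, an opsin. One pooled matrix holds 4 libraries, told apart by barcode endings that name no sample, so the matrix was treated as 1 sample and neither treatments nor sexes were compared. Cell classes are described instead. Values in libraries 1 to 4 are given as values, with no SD and no p-value.

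Potassium channels let potassium ions leave or enter the cell and so set the resting potential, the shape of the action potential and the firing rate. Pore-forming subunits fall into voltage-gated families (Kv1 to Kv4, Kv7, Kv10 to Kv12 and the electrically silent modifiers), calcium-activated and sodium-activated channels, inward rectifiers (Kir) and K2P leak channels. Auxiliary subunits carry no pore and change the gating or the trafficking of the pore-forming subunits. Among the members, 62 of the 72 protein-coding genes encode a stretch that matches the selectivity filter, the short loop that lets potassium pass. The pattern searched in the translated GENCODE M21 coding sequence was threonine or serine, then valine, isoleucine or leucine, then glycine, then tyrosine, phenylalanine or leucine, then glycine. All 10 K2P members had it, 8 of them at 2 places, and 0 of the 9 auxiliary subunits did. It was also absent from Kcnrg, a regulator of channel assembly. The filter stretches of 6 members that the comparisons below turn on are shown in the coding direction, with the 15 filter bases in capitals. They are shown to set the pore loops of genes with different class patterns side by side.
Kcnc1 (Kv3, chr7:46427958-46428002, GRCm38, plus strand): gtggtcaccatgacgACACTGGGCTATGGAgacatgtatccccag
Kcnc2 (Kv3, chr10:112456214-112456258, plus strand): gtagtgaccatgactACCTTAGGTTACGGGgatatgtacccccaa
Kcns3 (silent modifier, chr12:11091560-11091604, minus strand): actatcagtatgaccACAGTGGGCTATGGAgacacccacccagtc
Kcnd2 (Kv4, chromosome 6, plus strand, over an exon junction): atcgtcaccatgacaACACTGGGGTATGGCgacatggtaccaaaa
Kcnh8 (Kv12, chr17:52877976-52878020, plus strand): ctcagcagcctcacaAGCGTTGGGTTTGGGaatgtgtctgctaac
Kcnk13 (K2P, second pore loop, chr12:100061361-100061405, plus strand): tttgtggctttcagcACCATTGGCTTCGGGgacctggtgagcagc
The 2 Kv3 stretches, both from genes higher in inhibitory neurons, differed at 6 of the 15 filter bases and at 12 of the 45 bases shown.

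The 75 members comprised 5 Kv1 (Kcna), 2 Kv2 (Kcnb), 4 Kv3 (Kcnc), 3 Kv4 (Kcnd), 8 silent modifier (Kcnf, Kcng, Kcns and Kcnv), 5 Kv7 (Kcnq) and 8 Kv10 to Kv12 (Kcnh) genes. There were also 4 BK and sodium-activated (Kcnma1, Kcnu1, Kcnt1 and Kcnt2), 3 SK (Kcnn), 10 Kir (Kcnj) and 10 K2P (Kcnk) genes, 9 auxiliary subunits, Kcnrg and 3 noncoding transcripts (Kcnq1ot1, Kcnmb4os1 and Kcnmb4os2). The members nearest above the limit were Kcnk7 with 115 UMIs, Kcnmb4os1 with 118 and Kcna3 with 127. Nearest below it were Kcnmb3 with 68, Kcne1 and Kcnv2 with 65 each and Kcna5 with 62. The antisense symbols Kcnd3os (696 UMIs) and Kcnab3os (108 UMIs) were left out by their ending. All 75 members matched GENCODE M21 by gene ID, and 42 of them overlap another annotated gene, 17 of them on the same strand. Kcnrg overlaps Dleu2, Kcnh1 overlaps Hhat, Kcnh3 overlaps Mcrs1, Kcnq1 overlaps Kcnq1ot1 and Kcnmb4 overlaps both Kcnmb4os transcripts, each on the opposite strand, while Kcnk4 shares its strand with Catsperz. How reads over such overlaps were assigned is not given in the sources used here, so the values of these genes are uncertain.

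Members took 2.24% of all UMIs of the 12981 nuclei used. Kcnip4, a subunit that binds Kv4 channels, held 39.7% of the members' 2857759 UMIs, the 10 members with most UMIs held 83.3%, and the 40 with fewest held 1.94%. Counts from nuclei include unspliced RNA. Over the 75 members, UMI number and gene length had a Spearman correlation of 0.67, given as a description of genes measured in the same libraries. Kcnip4 spans 1135 kb, and the median length was 464 kb in the 10 members with most UMIs against 20.4 kb in the 40 with fewest. Levels are therefore compared below within a gene between classes, not between genes. They are given as CPM, the UMIs of a gene per 1000000 UMIs of a class.

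The share of UMIs in members was 2.41% in excitatory, 2.24% in inhibitory and 0.588% in non-neuronal nuclei. By library it ran from 2.28% to 2.57% in excitatory, from 2.15% to 2.34% in inhibitory and from 0.504% to 0.724% in non-neuronal nuclei, so neuronal and non-neuronal values did not overlap. Among excitatory classes it was highest in L4/5 IT nuclei at 3.43% (3.22% to 3.54% by library) and lowest in L6 CT nuclei at 1.42% (1.38% to 1.46%), with no overlap between these classes. IT, ET, NP and CT stand for intratelencephalic, extratelencephalic, near-projecting and corticothalamic neurons. Among glia it was highest in oligodendrocyte precursors at 1.24% and lowest in microglia at 0.279%. The depth behind these shares differed, with medians of 10901 UMIs per excitatory, 8680 per inhibitory and 3019 per non-neuronal nucleus.

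**Figure D1:**
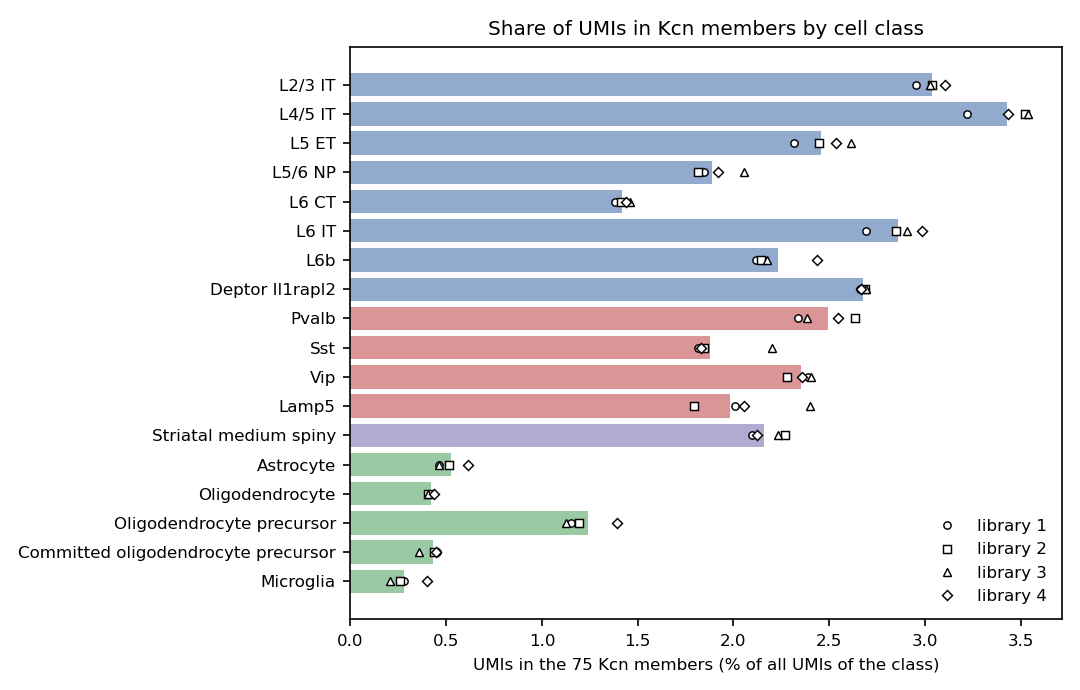
Bars give the percentage of all UMIs of a class that fell in the 75 members, over all libraries (blue excitatory, red inhibitory, purple striatal-like, green glial), and open symbols give each of the 4 libraries. L4/5 IT nuclei sit at 3.43%, L6 CT nuclei at 1.42% and microglia at 0.279%.

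The 4 libraries held 4187, 3474, 1573 and 3747 of the nuclei used. Of their barcodes, 17 occurred in 2 or more libraries. Classes were named by clustering without Kcn genes and by other markers, so names mean resemblance. There were 8278 excitatory, 1338 inhibitory and 2500 named non-neuronal nuclei, 335 nuclei like striatal medium spiny neurons, and 530 left unnamed. One excitatory cluster of 1161 nuclei had only 2 enriched markers of L5 IT neurons and is called by these markers, Deptor Il1rapl2, a name chosen after its values were seen. Slc17a7, which loads glutamate into synaptic vesicles, had 246 CPM in excitatory nuclei but also at 77.7 CPM in inhibitory, 175 CPM in non-neuronal and 241 CPM in microglia-like nuclei. Gad1, which makes GABA, stood at 212 CPM in inhibitory, 11.1 CPM in excitatory and 36.0 CPM in non-neuronal nuclei. RNA from outside the nucleus can thus be part of any low value below, above all in the shallower glial nuclei, and its part in each result was not tested.

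**Figure D2:**
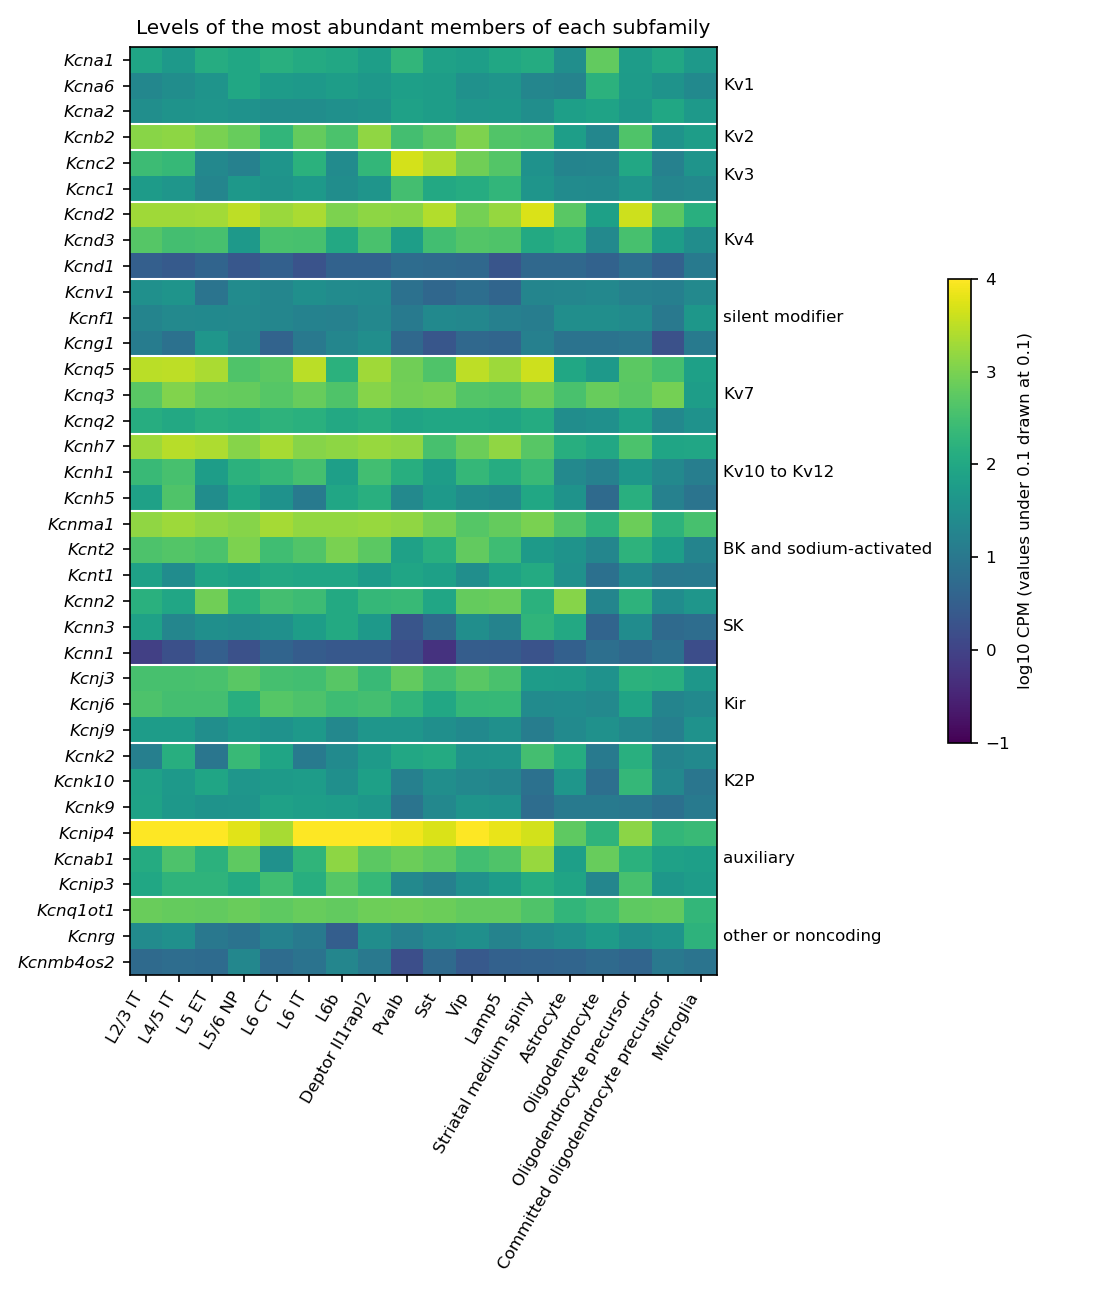
Colour gives log10 CPM of at most 3 members of each subfamily, taken from those with most UMIs (rows) in 18 cell classes (columns). Kcnip4 exceeds 2000 CPM in all neuronal classes drawn, Kcnc2 peaks in Pvalb and Sst nuclei, and Kcna1 peaks in oligodendrocytes.

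Neurons held more RNA than non-neuronal nuclei of most Kv7 and Kv10 to Kv12 genes and of most BK and sodium-activated genes, while a smaller set that included leak and inward-rectifier genes ran the other way. A gene was tested where both sides together held 100 UMIs or more. It was called where its level differed 2-fold or more and each of the 4 libraries showed that direction. A library with 0 UMIs of a gene on a single side counted as lower on that side. A gene with 0 UMIs in a library of a class could thus be called lower in that class but not higher. By this rule of size, 32 of 74 members tested were higher in neurons and 8 were lower, 54.1% in all. The same rule called 40.5% of all genes tested, 14.9% higher and 25.5% lower. The median log2 ratio was 0.80 over members and -0.41 over all genes tested. By subfamily, 4 of 5 Kv7, 5 of 8 Kv10 to Kv12, 3 of 4 BK and sodium-activated, and 4 of 9 auxiliary members were higher in neurons. For Kir the count was 2 higher and 3 lower of 10, for K2P 4 higher and 2 lower of 9, and for SK 0 of 3 in either direction.

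Kcnip4 showed the largest called ratio on the neuronal side. Its level was 9732 CPM in neurons against 553 CPM in non-neuronal nuclei, a log2 ratio of 4.14 (95% counting interval 4.10 to 4.18). In non-neuronal nuclei it stood at 428, 388, 126 and 1154 CPM in libraries 1 to 4, while in excitatory nuclei it kept between 9267 and 10942 CPM. Library 4 was thus the highest on the glial side, and the log2 ratio ran from 3.12 to 6.39 by library. Kcnmb2, a BK channel subunit, followed with 119 against 8.16 CPM (log2 ratio 3.87, 3.53 to 4.23). Kcnc2, a Kv3 channel of fast-spiking cells, had 457 against 37.0 CPM (3.63, 3.47 to 3.79). Kcnh7, an ERG-type channel, had 1847 against 166 CPM (3.48, 3.40 to 3.55), and Kcnq5, a subunit of the M-current channel, had 1837 against 184 CPM (3.32, 3.25 to 3.39). Kcnj6, a G protein-gated inward rectifier, had 356 against 36.4 CPM (3.29, 3.13 to 3.45). The log2 ratios of the other 26 members called higher lay between 1.04 (Kcnq1ot1) and 3.24 (Kcnh1).

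On the glial side, Kcnh8, a Kv12 channel, had 1.63 CPM in neurons and 63.4 CPM in non-neuronal nuclei, a log2 ratio of -5.28 (-5.53 to -5.04). Its non-neuronal level was 57.6, 64.1, 63.4 and 68.3 CPM in the 4 libraries, and no library of excitatory nuclei exceeded 1.71 CPM. Kcnj10, the Kir channel known for glial potassium uptake, had 4.64 against 78.1 CPM (-4.07, -4.24 to -3.91), and Kcnj16, which pairs with it, 1.23 against 18.7 CPM (-3.93, -4.27 to -3.60). The K2P genes Kcnk6 (0.892 against 9.31 CPM, log2 ratio -3.38, -3.82 to -2.94) and Kcnk13 (11.8 against 105 CPM, -3.14, -3.27 to -3.02) were lower in neurons as well. Kcnrg (log2 ratio -1.68), Kcna1 (-1.19) and Kcnj2 (-1.02) completed the set. When ratios were centred on the median of all genes, Kcna1 and Kcnj2 fell short of the size rule, at -0.79 and -0.62. Kcnj2 also did so without library 1 or library 2. In all, Kcnj2 kept its call under 7 alternatives and only its direction under 9. Kcna1 kept its call under 13 and only its direction under 3. Kcnj9 lies 11892 bp from Kcnj10 on the opposite strand and did not share its pattern, with 41.9 CPM in excitatory and 28.4 CPM in non-neuronal nuclei.

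**Figure D3:**
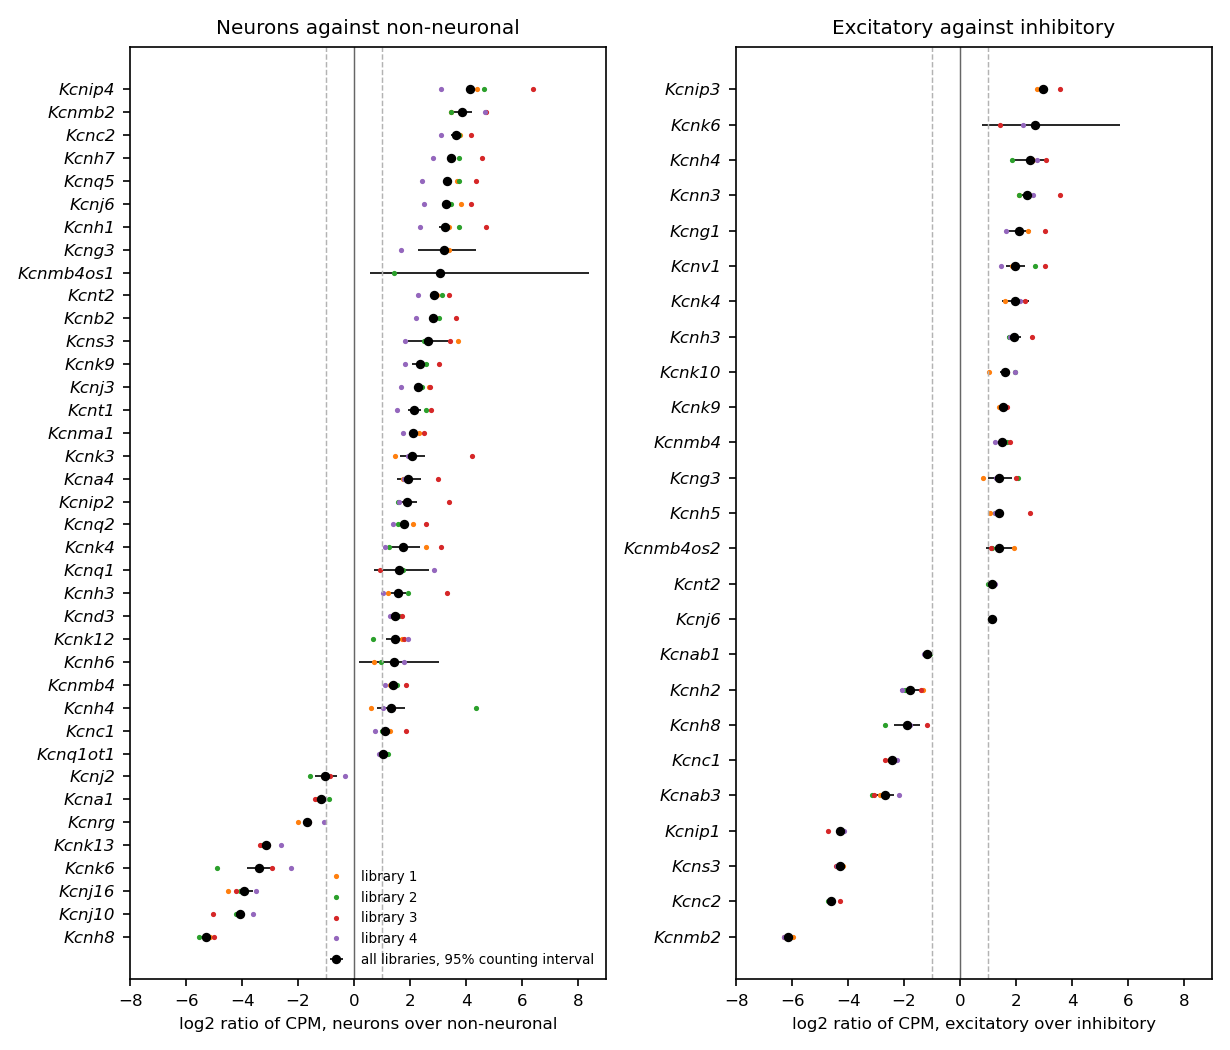
Rows are members called in neurons against non-neuronal nuclei (left) or in excitatory against inhibitory neurons (right). The x axis is the log2 ratio of CPM, black points with bars are all libraries with the 95% counting interval, coloured points are single libraries (a library with 0 UMIs on one side is not drawn), and dashed lines mark 2-fold. Kcnip4 (4.14) and Kcnh8 (-5.28) end the left panel, Kcnip3 (2.97) and Kcnmb2 (-6.15) the right.

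Between the main neuronal classes, 17 of 74 members were higher in excitatory and 10 were higher in inhibitory neurons, 36.5% in all, against 16.6% of all genes tested (9.14% higher in excitatory and 7.43% in inhibitory). The median log2 ratio was 0.12 over members and -0.13 over all genes tested. The largest ratios belonged to channel genes of inhibitory neurons. Kcnmb2, the BK subunit that makes the channel inactivate, had 816, 1071, 934 and 953 CPM in inhibitory nuclei of libraries 1 to 4 and 13, 15.8, 12 and 12.3 CPM in excitatory nuclei. The groups lay far apart in every library, with a log2 ratio of -6.15 (-6.23 to -6.07). Kcnc2 had 2801, 3132, 3309 and 3047 CPM in inhibitory against 108, 118, 172 and 128 CPM in excitatory nuclei (log2 ratio -4.59, -4.62 to -4.57). Its relative Kcnc1 had 217 against 39.9 CPM (-2.44, -2.51 to -2.37), while Kcnc4 was not called.

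Kcns3, which forms no channel of its own and modifies Kv2 channels, had 72.5, 55.1, 77.7 and 72 CPM in inhibitory nuclei against 3.48 CPM in excitatory nuclei overall (log2 ratio -4.30, -4.48 to -4.12). Kcnip1, a Kv4-binding protein, had 502 against 25.9 CPM (-4.27, -4.34 to -4.21). Kcnab3, a Kv1 beta subunit, had 11.7 against 1.80 CPM (-2.69, -3.01 to -2.37). Among the others higher in inhibitory neurons were Kcnh8, Kcnh2 and Kcnab1, with log2 ratios from -1.91 to -1.16. Kcnh8 stood at only 4.67 CPM there.

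On the excitatory side, Kcnip3, another Kv4-binding protein, led with 220, 190, 197 and 203 CPM in excitatory nuclei of the 4 libraries and 33.2, 23.3, 16.4 and 26.3 CPM in inhibitory ones. The groups did not overlap, and the log2 ratio was 2.97 (2.82 to 3.13). The Kcnip genes thus split, with Kcnip3 higher in excitatory and Kcnip1 higher in inhibitory nuclei, while Kcnip4 (10046 against 7281 CPM) was not called. Kcnh4, a Kv12 channel, had 11.0 against 1.94 CPM (2.5, 1.93 to 3.13), and Kcnn3, a small-conductance calcium-activated channel, 46.9 against 9.02 CPM (2.38, 2.11 to 2.66). The silent modifiers Kcng1 (17.6 against 4.04 CPM, 2.12, 1.72 to 2.55) and Kcnv1 (23.9 against 6.06 CPM, 1.98, 1.65 to 2.32) were also higher. Kcnk6 had 99 UMIs in excitatory and 2 in inhibitory nuclei (log2 ratio 2.66, 0.77 to 5.73), and it dropped under 100 UMIs when any 1 library was left out. The other 11 members higher in excitatory nuclei had log2 ratios from 1.12 (Kcnj6) to 1.97 (Kcnk4), among them Kcnk9, Kcnk10, Kcnt2 and Kcnmb4.

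Each named excitatory subclass was compared with the other named subclasses together. In at least 1 of the 8 comparisons, 46 of 72 members were called, 63.9%, against 29.1% of all genes tested. Of these, 29 were higher and 41 were lower somewhere, and 24 went both ways. The number called ran from 7 in L6 IT to 24 in L5/6 NP nuclei. In L6 IT nuclei 1.39% of members were higher and 8.33% lower, against 1.75% and 4.53% of all genes. In L5/6 NP nuclei 10 members were higher and 14 lower, 13.9% and 19.4% of the 72, against 4.55% and 9.59% of all genes.

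L5/6 NP nuclei stood apart by Kcnip1, with 472, 420, 453 and 479 CPM in the 4 libraries against 7.77 CPM in the other excitatory nuclei (log2 ratio 5.89, 5.76 to 6.01). That placed an excitatory class in the range of the inhibitory subclasses for this gene, which ran from 334 CPM in Pvalb to 958 CPM in Vip nuclei. Kcnk2, the mechanically sensitive leak channel TREK-1, had 232 against 47.8 CPM (2.28, 2.18 to 2.38). Kcnmb2 (35.5 against 12.5 CPM) and Kcnt2, a sodium-activated channel (1035 against 424 CPM), were also higher, with log2 ratios of 1.51 and 1.29. Kcnh8 (34 UMIs) and Kcnab3 (19 UMIs) were called on few molecules, at log2 ratios of 3.17 and 1.48. Each fell under the minimum of 100 UMIs without library 4, as did Kcnh8 without library 1, and Kcnab3 fell to 0.94 without library 2 and to -0.40 with nuclei thinned to 1500 UMIs. Among the 14 lower members were Kcnd3, a Kv4 channel (50.8 against 366 CPM, -2.85, -3.06 to -2.65), Kcnc2 (15.5 against 131 CPM, -3.08, -3.46 to -2.72) and Kcnq5 (412 against 1982 CPM, -2.27, -2.34 to -2.20). Kcnh4 and Kcng3 had 2 UMIs each in L5/6 NP nuclei, with log2 ratios of -4.5 (-7.55 to -2.65) and -4.42 (-7.47 to -2.56).

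L6 CT nuclei had no member called higher and 13 called lower (18.1% of the 72, while 2.49% of all genes were higher and 7.80% lower). Their Kcnip4 level was 2196, 1957, 2565 and 2395 CPM against 12722 CPM in the other subclasses (log2 ratio -2.5, -2.51 to -2.49). Kcnb2, a delayed rectifier, had 194 against 1108 CPM (-2.52, -2.56 to -2.47) and Kcnq5 560 against 2390 CPM (-2.09, -2.12 to -2.07). Kcnab1, a Kv1 beta subunit, stood at 33.6 against 342 CPM (-3.35, -3.45 to -3.25). Kcnip1, Kcng3, Kcnk13 and Kcns3 had log2 ratios of -4.25, -3.73, -2.84 and -2.75, with 1.80, 1.02, 2.04 and 0.666 CPM in L6 CT nuclei.

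L6b nuclei had 6 members higher and 17 lower (8.33% and 23.6% of members, against 3% and 10.1% of all genes). Kcnab1 reached 1356, 1345, 1245 and 1610 CPM against 228 CPM elsewhere (log2 ratio 2.65, 2.60 to 2.70), so the 2 deep-layer classes L6b and L6 CT lay at opposite ends for this gene. Kcnmb4 (228 against 92.1 CPM), Kcnn3 (109 against 44.6 CPM), Kcnip3 (478 against 195 CPM) and Kcnt2 (998 against 432 CPM) were higher with log2 ratios between 1.21 and 1.31. Kcnmb4os2, which overlaps Kcnmb4 on the other strand, was higher too, at 1.41. Kcnq5 was low at 155, 176, 143 and 139 CPM against 1972 CPM (-3.67, -3.81 to -3.54). Kcng3 and Kcns1 had 0 UMIs in L6b nuclei. A floor of 3 counts over the class makes Kcng3 at least 10.2-fold lower and Kcns1 at least 2.30-fold lower there. Kcnmb2 and Kcns3 had 2 and 1 UMIs (-4.31, -7.36 to -2.46, and -3.37, -8.68 to -0.89).

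L5 ET nuclei had 6 members higher and 15 lower (8.33% and 20.8% of members, against 2.98% and 6.83% of all genes). Kcnn2, an SK channel, stood at 736, 871, 998 and 774 CPM against 230 CPM in the other subclasses (log2 ratio 1.82, 1.79 to 1.85). Of 8 silent modifiers tested, 3 were higher and 1 was lower, with a median log2 ratio of 0.10. The higher ones were Kcng2 (20.1 against 2.84 CPM, 2.82, 2.57 to 3.07), Kcns3 (11.7 against 2.09 CPM, 2.49, 2.18 to 2.80) and Kcng1 (42.7 against 13.1 CPM, 1.71, 1.56 to 1.85), and the lower one was Kcnv1 (8.48 against 26.5 CPM, -1.64). Kcnab3 and Kcnk12 were just past 2-fold, at 1.08 and 1.01, and fell short of it without library 4 and library 2, at 0.87 and 0.92. Lower members included Kcnk2 (9.10 against 63.0 CPM, -2.79), Kcnip2 (4.76 against 32.9 CPM, -2.79), Kcnc2 (21.6 against 144 CPM, -2.74) and Kcnh1, an EAG channel (61.4 against 260 CPM, -2.09).

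In L2/3 IT nuclei 6 members were higher and 8 lower (8.33% and 11.1% of members, against 3.75% and 5.49% of all genes). Kcnk13, known mostly from microglia, had 40.8, 38.2, 47.4 and 34.6 CPM there against 6.40 CPM elsewhere (log2 ratio 2.62, 2.45 to 2.79). Kcnh4 (30.6 against 7.44 CPM, 2.04), Kcnip2 (70.0 against 21.5 CPM, 1.71) and Kcnc2 (267 against 102 CPM, 1.39) were also higher. In L4/5 IT nuclei 5 members were higher and 10 lower (6.94% and 13.9% of members, against 2.14% and 6.53% of all genes). Kcnh5, an EAG channel, had 405, 347, 458 and 434 CPM against 60.5 CPM (2.79, 2.72 to 2.85). In L6 IT nuclei the same gene was low, at 11.3 against 96.0 CPM (-3.08, -3.32 to -2.86), so Kcnh5 lay at opposite ends in these 2 classes. The 1 member higher in L6 IT nuclei was Kcnu1, a gene known for a sperm channel, at 6.91 against 3.37 CPM (1.04, 0.69 to 1.37), and without library 4 it fell to 0.83. In the Deptor Il1rapl2 cluster 6 members were higher and 6 lower (8.33% and 8.33% of members, against 1.96% and 4.12% of all genes), led by Kcnab1 (546 against 204 CPM, 1.42) and Kcnip1 (3.49 against 30.6 CPM, -3.13). Of the 15 calls in L4/5 IT nuclei, those of Kcng1, Kcnmb2, Kcnn3, Kcnq1, Kcnh4, Kcnh6 and Kcns3 changed sign under other clusterings or doublet settings, while Kcnh5 and Kcnip1 held under all of them. The name L4/5 IT covered 548 nuclei here. It covered 1780 at resolution 0.5, 1495 with doublets kept and 1756 with the automatic doublet threshold, where no Deptor Il1rapl2 cluster was found.

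**Figure D4:**
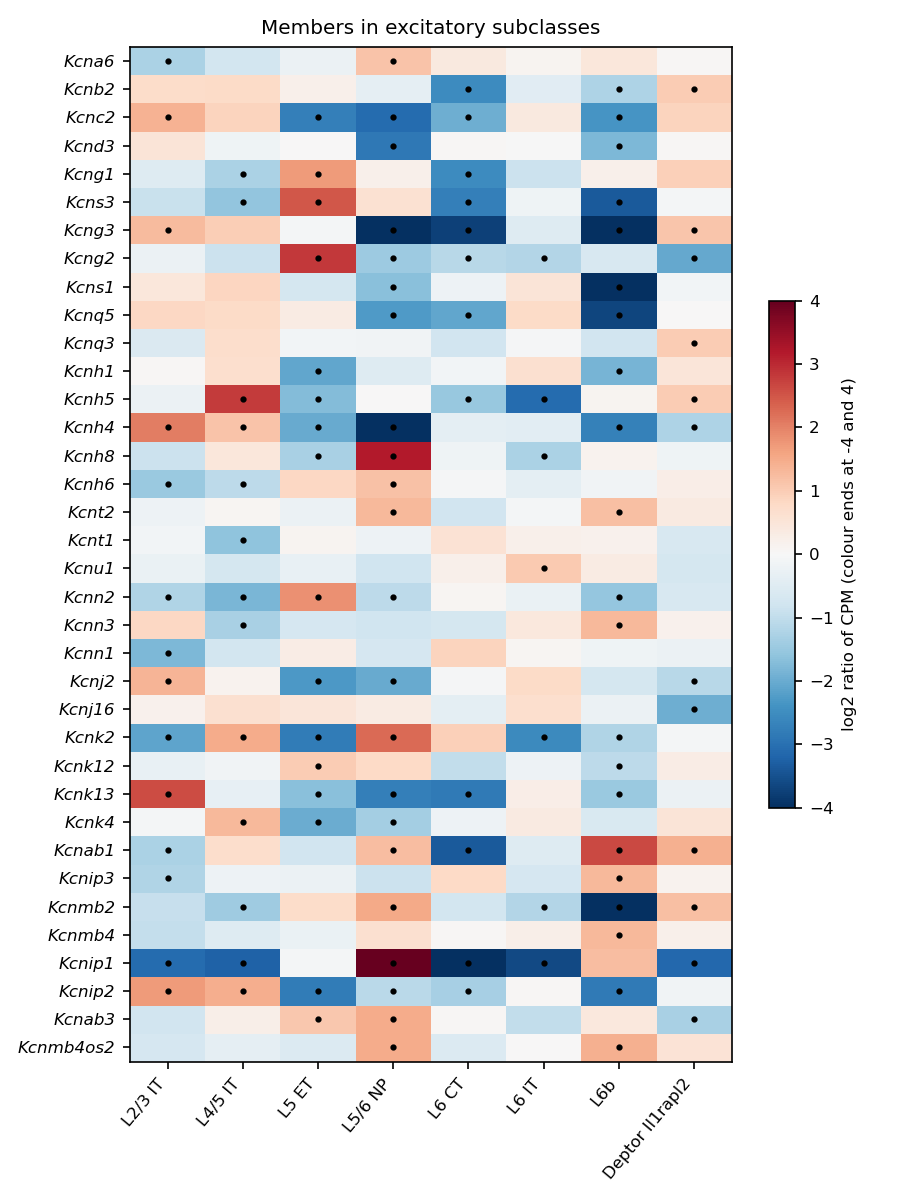
Colour gives the log2 ratio of CPM in an excitatory subclass (columns) over the other subclasses together, for members (rows) with the largest calls. Dots mark called members, and ratios beyond -4 or 4 take the end colours. The L6 CT column holds no red dot, and Kcnip1 is red in L5/6 NP nuclei alone among the dotted cells of its row.

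Inhibitory subclasses differed in 31 of 51 members in at least 1 of 4 comparisons, 60.8%, against 16.8% of all genes tested. Pvalb nuclei, which resemble fast-spiking interneurons, had 7 members higher and 9 lower (13.7% and 17.6% of members, against 3.36% and 5.06% of all genes). Both Kv3 genes known for fast repolarization were higher. Kcnc2 had 4406, 5222, 4914 and 4705 CPM in the 4 libraries, a log2 ratio of 1.57 (1.54 to 1.60) to the other subclasses. Kcnc1 had 369, 317, 356 and 289 CPM (1.34, 1.23 to 1.46). For Kcnc2 the order of levels was Pvalb (4803 CPM), Sst (2511), Vip (820) and Lamp5 (450), and library ranges did not overlap between any neighbours in it. Kcnab3 had 21.4 against 3.80 CPM (2.49, 1.88 to 3.15), Kcnip2 72.2 against 21.6 CPM (1.74, 1.47 to 2.01) and Kcna1, a Kv1 channel of axons, 198 against 75.2 CPM (1.40, 1.25 to 1.55). Kcnd3 was low at 83.0, 68.3, 66.3 and 48.2 CPM against 377 CPM (-2.54, -2.70 to -2.38). Kcnt2 (73.4 against 306 CPM, -2.06) was low as well.

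Vip nuclei differed in 22 members, 10 higher and 12 lower (19.6% and 23.5% of members, against 3.59% and 6.14% of all genes). Kcnq5 stood at 3471, 3371, 2475 and 2843 CPM against 819 CPM in the other subclasses (log2 ratio 1.93, 1.88 to 1.97). Kcnt2 had 623 against 124 CPM (2.33, 2.22 to 2.45), Kcnb2 1071 against 398 CPM (1.43, 1.35 to 1.5) and Kcnn3 29.8 against 5.16 CPM (2.53, 1.98 to 3.08). Kcnn3 rested on 60 UMIs and dropped under 100 UMIs in the comparison without library 1, 2 or 4. Kcns3 (10.9 against 78.9 CPM, -2.85), Kcnc2 (820 against 3455 CPM, -2.07) and Kcnk12, a K2P gene (6.95 against 33.6 CPM, -2.27), were lower. Kcnc2, Kcnt2, Kcnd3, Kcnb2 and Kcnn3 were called in opposite directions in Vip and Pvalb nuclei, each of which is in the reference of the other.

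Sst nuclei had 3 members higher and 10 lower (5.88% and 19.6% of members, against 2.34% and 4.21% of all genes). Kcnd2, the main Kv4 channel of dendrites, had 2846, 2925, 2364 and 2399 CPM against 1250 CPM (log2 ratio 1.08, 1.04 to 1.12), and Kcnmb4, a BK subunit, 65.8 against 21.7 CPM (1.60, 1.33 to 1.88). Under the automatic doublet threshold Kcnmb4 had -0.54, but the name Sst then covered 28 nuclei, against 388 here. A cluster of 406 inhibitory nuclei had no subclass name in that setting. Kcnn2 (90.1 against 406 CPM, -2.17), Kcnh7 (357 against 1339 CPM, -1.91) and Kcnq5 (412 against 1484 CPM, -1.85) were lower. Lamp5 nuclei, the smallest of these classes with 153 nuclei, had 5 members higher and 4 lower (9.80% and 7.84% of members, against 2.85% and 5.07% of all genes). Kcnk13 led with 47.8, 55.9, 122 and 92.9 CPM against 7.96 CPM (3.08, 2.65 to 3.51), and Kcnn2 was also higher (723 against 265 CPM, 1.45). Kcnc2 was lower (-2.90, -3.02 to -2.79).

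Nuclei like striatal medium spiny neurons, GABAergic cells of the neighbouring striatum, differed from the cortical inhibitory neurons in 29 of 54 members (53.7%, against 18.5% of all genes tested), 8 higher and 21 lower. Of all genes, 4.23% were higher and 14.2% lower. These nuclei were spread unevenly, with 223, 79, 32 and 1 nuclei in the 4 libraries, so the value of library 4 is that of a single nucleus. Without library 4 the counts were 13 higher and 20 lower of 50 tested, and with doublets kept 13 and 17 of 55. Kcnd2 reached 5070, 5298 and 5921 CPM in libraries 1 to 3 and 7423 CPM in that nucleus, against 1650 CPM in inhibitory neurons (log2 ratio 1.68, 1.64 to 1.71). Its partners Kcnip3 (128 against 25.9 CPM, 2.30, 2.08 to 2.52) and Kcnip2 (181 against 44.2 CPM, 2.04, 1.86 to 2.21) were higher as well, as were Kcnk2 (314 against 85.6 CPM, 1.88), Kcnq5 (4172 against 1178 CPM, 1.82) and Kcnab1 (1674 against 586 CPM, 1.51). Kcnj4, an inward rectifier, was higher at 1.30. Several genes called higher in inhibitory than in excitatory neurons were low. Kcnc2 had 35.4 against 3043 CPM (-6.43, -6.74 to -6.13), Kcnmb2 12.3 against 946 CPM (-6.27, -6.81 to -5.77) and Kcns3 2 UMIs (-6.47, -9.52 to -4.62). Kcnab3 had 0 UMIs, at least 10.1-fold lower with a floor of 3 counts over the class. Kcnip1 (-4.76) and the G protein-gated rectifiers Kcnj3 (-3.08) and Kcnj6 (-2.73) were lower too.

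Glial classes were each compared with the other named non-neuronal classes. In at least 1 of 5 comparisons 37 of 44 members were called, 84.1%, against 51.1% of all genes tested. Oligodendrocyte precursors had the largest number of members called, with 22 members higher and 6 lower (50% and 13.6% of members, against 8.08% and 15.4% of all genes). The median log2 ratio there was 1.07 over members and -0.24 over all genes. Centring on that median gave 23 higher and 2 lower. Kcnh8 had 300, 340, 378 and 250 CPM in the 4 libraries against 5.83 CPM in other glia (5.72, 5.26 to 6.21). Kcnip1 had 365 against 10.1 CPM (5.18, 4.82 to 5.55) and Kcnd2 4259, 4494, 4625 and 3426 CPM against 266 CPM (3.95, 3.87 to 4.02). The Kcnd2 level of these precursors thus lay above the pooled level of every named cortical neuronal class, the highest of which was L5/6 NP at 3127 CPM (2997 to 3500 by library, overlapping the 3426 to 4625 of the precursors). Kcnk10, the leak channel TREK-2 (218 against 19.0 CPM, 3.51, 3.22 to 3.81), Kcnb2 (422 against 45.5 CPM, 3.21, 3.02 to 3.41) and Kcnh5 (142 against 15.9 CPM, 3.16, 2.83 to 3.49) were next. Committed precursors, the next stage of that lineage, had 2 members higher and 21 lower (4.55% and 47.7% of members, against 4.65% and 20.4% of all genes), and 4 higher and 11 lower with centring. In them Kcnh8 stood at 42.3 CPM and Kcnd2 at 545 CPM, between the precursors and the oligodendrocytes (3.04 and 68.2 CPM).

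Oligodendrocytes had 4 members higher and 21 lower (9.09% and 47.7% of members, against 7.88% and 21.3% of all genes). The 4 were Kcna1 (692, 503, 679 and 625 CPM against 50.3 CPM in other glia, log2 ratio 3.64, 3.46 to 3.82), Kcnab1 (689 against 92.0 CPM, 2.90, 2.77 to 3.05), Kcna6 (161 against 31.9 CPM, 2.34, 2.09 to 2.59) and Kcnk13 (207 against 51.9 CPM, 1.99, 1.79 to 2.20). Kcna1 and Kcna6 are Kv1 channels that lie 61945 bp apart on chromosome 6, and Kcnab1 encodes a beta subunit of Kv1 channels. Another Kv1 gene, Kcna2, was not called in oligodendrocytes (80.0 CPM). Kcnn2 (18.6 against 504 CPM, -4.76) and Kcnd2 (-4.44) were among the lowest.

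Astrocytes had 6 members higher and 11 lower (13.6% and 25% of members, against 9.22% and 16.3% of all genes), and 6 higher and 7 lower with centring. Kcnn2 stood at 1217, 1259, 1431 and 1040 CPM against 63.1 CPM in other glia (log2 ratio 4.26, 4.11 to 4.42), above the 811 CPM of L5 ET neurons, and the library ranges of these classes did not overlap. Kcnn3 (105 against 11.8 CPM, 3.16, 2.78 to 3.55), Kcnk1, the leak channel TWIK-1 (97.1 against 27.7 CPM, 1.81), Kcnj16 (39.7 against 12.1 CPM, 1.71) and Kcnk2 (126 against 51.7 CPM, 1.29) were also higher. Kcnj10 was not called in astrocytes. Its level was 110 CPM (55.1 to 167 by library) in astrocytes and 108 CPM (89.7 to 126) in oligodendrocytes, with overlapping ranges. Kcnh8 had 0 UMIs in astrocytes, at least 58.2-fold lower than in other glia with a floor of 3 counts.

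Microglia had 2 members higher and 20 lower (4.55% and 45.5% of members, against 15.5% and 18.5% of all genes). Kcnrg had 185, 154, 255 and 88.5 CPM in the 4 libraries against 42.1 CPM (log2 ratio 2.00, 1.74 to 2.25), and it overlaps Dleu2 on the other strand. Kcnk13, the channel known as THIK-1 in these cells, had 215, 210, 217 and 209 CPM against 85.6 CPM (1.31, 1.10 to 1.52). Oligodendrocytes held a like level of Kcnk13, with overlapping library ranges. Some of the lower calls changed sign under other settings. At a coarser clustering resolution Kcnip4, Kcnq5, Kcnb2 and Kcnip1 turned from lower to higher in the nuclei named microglia, with log2 ratios from 2.73 to 2.90. The name then covered 552 nuclei, against 507 here. A cluster of 73 nuclei with microglial markers and a median of 11249 UMIs was left unnamed here. Kcnrg kept its call under every alternative that gave a value for it. Kcnk13 kept its call under 10 alternatives and only its direction under 5.

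**Figure D5:**
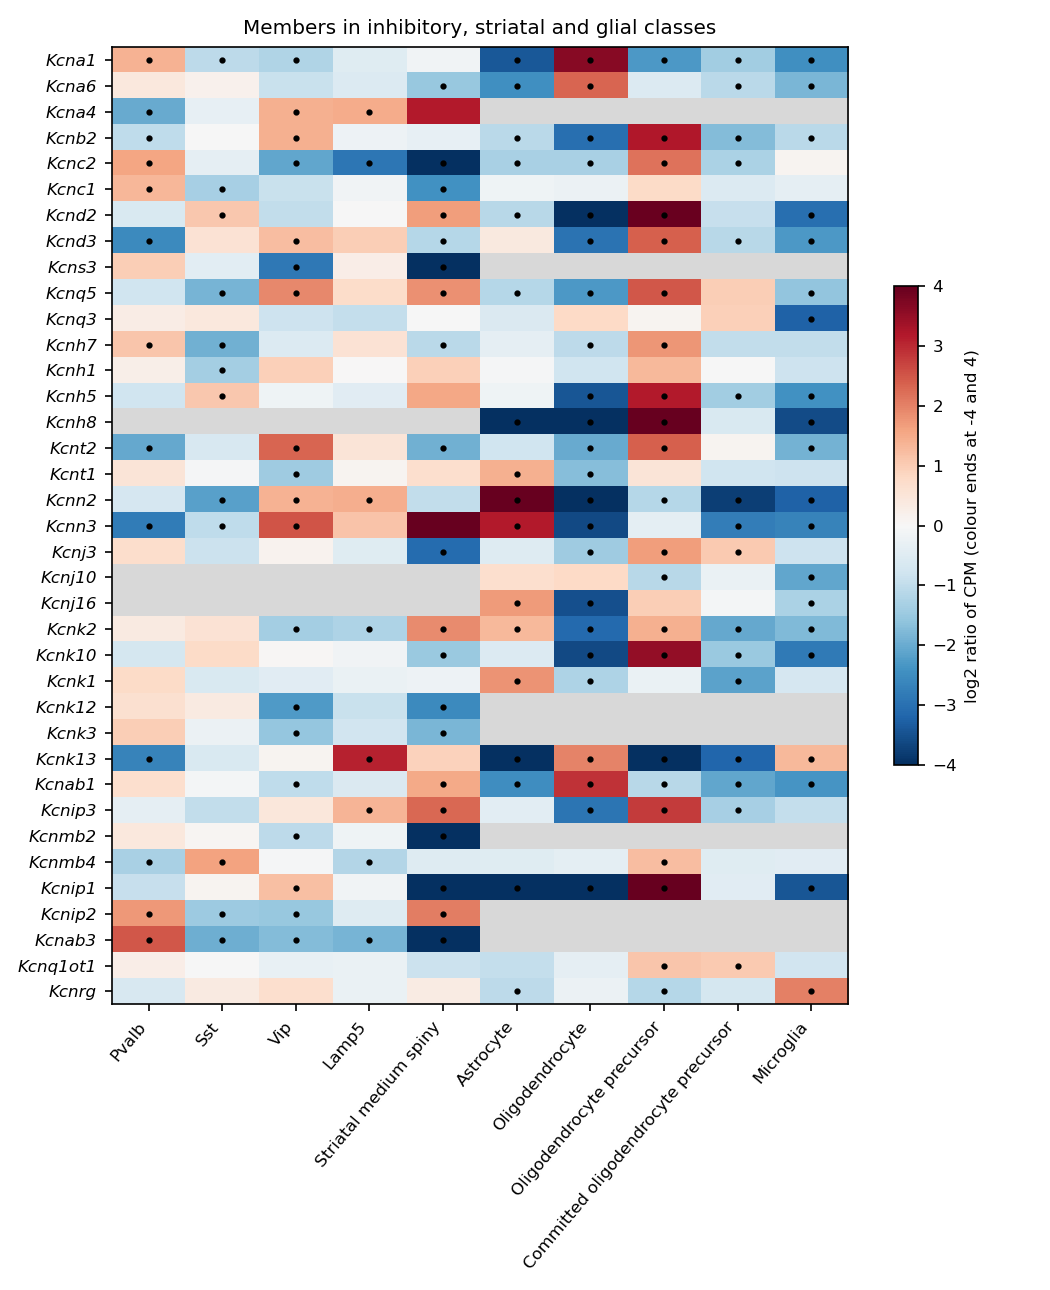
Colour gives the log2 ratio of CPM for members (rows) in inhibitory subclasses over the other inhibitory subclasses, in striatal medium spiny-like nuclei over all cortical inhibitory neurons, and in glial classes over the other non-neuronal classes. Dots mark called members, grey cells had fewer than 100 UMIs, and ratios beyond -4 or 4 take the end colours. Kcna1 is red in oligodendrocytes (3.64) and Kcnh8 in oligodendrocyte precursors (5.72).

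Genes that work with these channels but carry other names were read from a list of 25. Of 21 tested in neurons against non-neuronal nuclei, 8 were higher and 0 lower (of all genes, 14.9% were higher and 25.5% lower). Among the largest were Cntnap2, which anchors Kv1 channels beside the node (2476 against 139 CPM, log2 ratio 4.15) and Dpp10, a Kv4 partner (11633 against 824 CPM, 3.82). Between excitatory and inhibitory neurons 3 of 21 were higher and 3 lower (of all genes, 9.14% and 7.43%). Dpp10 (12901 against 1740 CPM, 2.89), Pex5l, which binds HCN channels (2.13), and Lrrc55, a BK subunit (1.69), were higher in excitatory neurons, and Lrrc38, another BK subunit (-6.69), Cntnap2 (-2.23) and Dpp6, the other Kv4 partner (-1.53), in inhibitory neurons. The Kv4 partners thus split between the neuronal classes, as Kcnip3 and Kcnip1 did, while Kcnd2 itself was not called. In L5 ET nuclei Pex5l (1.92) and Dpp6 (1.03) were higher. In Pvalb nuclei Lrrc38 was higher (23.1 against 1.69 CPM, 3.78), and Dpp6 was higher in oligodendrocyte precursors (837 against 64.2 CPM, 3.70), beside Kcnd2. In oligodendrocytes 3 of 16 tested were higher and 5 lower (of all genes, 7.88% and 21.3%). The higher ones were Pex5l (3.98), Ank3, a scaffold of the axon initial segment and node (1.92), and Hcn2 (1.82). Astrocytes had 1 higher and 6 lower (of all genes, 9.22% and 16.3%), and microglia 0 and 8 (15.5% and 18.5%). Oligodendrocyte precursors had 4 and 1 (8.08% and 15.4%), and committed precursors 1 and 4 (4.65% and 20.4%).

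The reporter allowed 1 further comparison. TREmcherry had at least 1 UMI in 1125 of 12981 nuclei, 155, 411, 54 and 505 by library, and positive nuclei were deeper, with a median of 10383 against 8748 UMIs. Microglia held 22.3 CPM of TREmcherry and excitatory nuclei 12.1 CPM. Whether a reporter UMI in a nucleus came from outside it was not tested. In the 7 classes with at least 50 positive nuclei, 3 of 64 members were called in positive against negative nuclei of the same class, 4.69% against 3.73% of all genes tested. Kcnmb2 was higher in positive nuclei of the Deptor Il1rapl2 cluster (45.2 against 22.5 CPM, log2 ratio 1.00, 0.65 to 1.35). This call, at the 2-fold limit, held under 6 alternatives, and only its direction held under 5. Centring on the median of all genes was among those that lost it. In L6 IT nuclei Kcnh5 (4 UMIs in positive nuclei, -1.93, -3.82 to -0.54) and Kcnh4 (3 UMIs, -1.91, -4.21 to -0.33) were lower. The share of members called lay near the background, and the median log2 ratio over members was between -0.041 and -0.001 in each of the 7 classes. The count was 1 of 57 members tested without library 1, 6 of 59 without library 3 and 7 of 56 without library 4. Both treatments are mixed in these nuclei.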

How the data were processed

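The deposited matrix holds counts of UMIs per gene and barcode, made by the authors with Cell Ranger 7.1.0 on mm10 with added transgene sequences, per the submitters' processing notes. Barcodes with at least 500 genes, 800 UMIs and at most 5% mitochondrial UMIs were kept, and 289 with a Scrublet score above 0.25 were removed, which left 12981 nuclei with a median of 8892 UMIs. The automatic doublet threshold marked only 3 barcodes in library 4. Clusters came from scanpy 1.11.5 (2000 variable genes without Kcn symbols, 30 components, Leiden resolution 1) and were named from marker lists. Summed UMIs of classes were compared by the rule of size in the report, with exact conditional binomial 95% intervals that cover counting error only. The rule was run over all genes for the background. It was also run on simulated Poisson counts for 4 comparisons. Unchanged genes called ran from 18 of 15596 (excitatory against inhibitory neurons) to 315 of 15152 (L6b). Of genes changed 3-fold, from 54 of 67 (Lamp5) to 62 of 67 (excitatory against inhibitory neurons) were called. The simulated counts had no added spread between libraries, so they cannot show how the rule behaves under such spread. In each comparison the 6 largest ratios in each direction could be named in full, and in each subfamily the 3 members with most UMIs. Members and lists were chosen with earlier results of these data known. Coordinates and filter stretches come from GENCODE M21 (GRCm38). Alternatives changed the clustering, doublets, variable genes, nucleus filters, depth, scaling, count minimum, fold, library weighting and libraries used. A few members and partner genes are counted in the totals and not reported here by name, nor drawn.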

Additional observations from a re-analysis of the deposited data

How the results depend on the processing

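Of 403 called member results, 128 kept their call under every alternative that gave a finite value and 25 changed sign under at least 1. Of 6184 values, 5379 kept the call, 757 kept the direction without the call and 48 changed sign. Among the 757 are striatal-like values with at most 1% mitochondrial UMIs, where no call was possible. With 0 UMIs on 1 side, 77 log2 ratios were taken as bounds from a floor of 3 counts, and 35 that had no such bound in the called direction, or an infinite median of the libraries, were left out. No paired analysis was possible because barcode endings name no sample, so the labels' replicate numbers could not be used. Class ratios were taken within each library and had to share their sign. Thinned to 1500 UMIs, 454 microglia-like and 504 astrocyte-like nuclei remained. With at most 1% mitochondrial UMIs, 13 microglia-like and 37 astrocyte-like nuclei were left. The Deptor Il1rapl2 cluster was not found at resolution 0.5 or with other doublet settings, nor Lamp5 and both precursor classes at resolution 0.5, nor L6 IT with Kcn genes among the variable genes, so these gave no value there.

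With at most 1% mitochondrial UMIs, 22 of 69 members tested were called between neurons and non-neuronal nuclei. In striatal-like nuclei the 1 nucleus of library 4 was lost, so no gene could meet the rule in all libraries. The 0 of 44 called there was therefore fixed in advance and shows nothing about the members. Thinning to 1500 UMIs gave 18 of 27 tested across inhibitory subclasses and 18 of 32 in striatal-like nuclei. Without thinning these were 31 of 51 and 29 of 54. Requiring 3-fold gave 29 of 72 across excitatory subclasses, 16 of 51 across inhibitory subclasses and 19 of 54 in striatal-like nuclei. For the reporter, 1 of 62 members was called at resolution 2.0, 1 of 64 with doublets kept and 1 of 62 with Kcn variable genes. The count was 17 of 72 with at least 20 UMIs and 8 of 64 with the median of the libraries. Leaving out 1 library gave 1 of 57 to 7 of 56. Shares over all genes were not taken under these alternatives. The median log2 ratio of all genes lay 0.1 or more from 0 in neurons against non-neuronal nuclei (-0.41), excitatory against inhibitory neurons (-0.13), L5 ET (-0.10), Deptor Il1rapl2 (-0.10), L5/6 NP (0.11), astrocytes (-0.21), oligodendrocytes (-0.14), their precursors (-0.24), committed precursors (-0.33), microglia (0.24) and striatal-like nuclei (-0.21). Centring on it changed no direction.

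Class names did not cover the same nuclei in every setting. L4/5 IT held 548 nuclei in the results above, 1780 at resolution 0.5, 1495 with doublets kept and 1756 with the automatic threshold. Sst held 388 above and 28 with the automatic threshold. Microglia held 507 above, 552 at resolution 0.5, 550 with the automatic threshold and 551 with Kcn variable genes. Log2 ratios that changed sign follow. In L4/5 IT nuclei at resolution 0.5 they were 0.60 for Kcng1, 0.89 for Kcnmb2, 0.17 for Kcnq1, -0.22 for Kcnh4 and 0.048 for Kcnh6, and at resolution 2.0 they were 0.24 for Kcng1 and 0.19 for Kcnmb2. With doublets kept they were 0.79 for Kcng1, 1.15 for Kcnmb2, 0.14 for Kcnn3, 0.30 for Kcnq1, -0.91 for Kcnh4, 0.19 for Kcnh6 and 0.058 for Kcns3. With the automatic doublet threshold they were 0.56 for Kcng1, 0.75 for Kcnmb2, 0.18 for Kcnq1 and -0.21 for Kcnh4, and with Kcn variable genes 0.028 for Kcng1. Thinning gave -0.40 for Kcnab3 in L5/6 NP nuclei. In the Deptor Il1rapl2 cluster Kcnmb2 had -0.52 at resolution 2.0 and Kcnh5 -0.63 with Kcn variable genes. In Sst nuclei Kcnn3 had 0.34 at resolution 0.5, 0.35 at 2.0, 3.60 with the automatic threshold and 0.18 with Kcn variable genes, and the automatic threshold gave -0.54 for Kcnmb4 and -0.18 for Kcnh5. In astrocytes Kcnq5 had 0.37 with doublets kept and Kcnd2 0.93 at resolution 0.5, and in oligodendrocytes Kcnh8 had 0.18 at resolution 0.5. In microglia resolution 0.5 gave 2.88 for Kcnb2, 2.90 for Kcnq5, 2.25 for Kcnt2, 0.44 for Kcnd3, 2.75 for Kcnip4, 1.17 for Kcnd2, 2.73 for Kcnip1, 0.36 for Kcnh5 and 1.76 for Kcnh8. There the automatic threshold gave 1.29 for Kcnb2, 1.47 for Kcnq5, 0.78 for Kcnt2 and 1.89 for Kcnip4, and Kcn variable genes gave 0.87, 1.33, 0.83 and 1.96 for the same genes. The cause was not tested.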
